A study of Mus musculus with 8 samples.

Results

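The 10 genes described here were Yy1, which encodes the zinc finger transcription factor YY1, and 9 genes of the INO80 chromatin remodeling complex: Ino80, Ino80b, Ino80c, Ino80d, Ino80e, Actr5, Actr8, Tfpt and Uchl5. They were chosen by name, because the study linked YY1 and this complex to the response of leukemia cells to inhibition of pyrimidine synthesis. Each symbol matched 1 row of the count table, so that 10 of its 54838 genes were followed in all 8 samples, and all 10 passed the filter on low counts.

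INO80 is a large remodeler that uses ATP to slide nucleosomes and to edit the histone variant H2A.Z within them, and it acts in transcription, replication and DNA repair. Its ATPase INO80 is the scaffold on which the other subunits assemble: the RuvB-like AAA+ proteins, the actin-related proteins ACTR5 and ACTR8, and smaller subunits, some of them particular to animals. YY1 copurifies with the mammalian complex, which it recruits to its target promoters, and the deubiquitinase UCHL5 is shared between INO80 and the proteasome.

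RNA had been sequenced from murine acute myeloid leukemia (AML) cells of the RUNX1-RUNX1T1 genotype on a C57BL/6 background. The cells had been transplanted into Ptprca mice and were sorted from bone marrow and spleen, with no statement of which sample came from which tissue. Mice of the 4 Vehicle samples received vehicle, and mice of the 4 AG636 samples received AG636, an inhibitor of the pyrimidine synthesis enzyme DHODH, b.i.d. by oral gavage at 100 mg/kg. Treatment lasted 1 day and the sorted fraction was cKit-high in this model, per the text of the study. Per the labels the recipients were sub-lethally irradiated, whereas the methods of the study describe irradiation for its other models. Both groups carried the fusion, and treatment was the only difference between them that the labels state. Tissue could also differ between the groups, because it is not given by sample. No animal age was given in the labels, and the labels do not say that each sample was a separate mouse. The study names fewer mice for each arm of this experiment than there are samples here, so the p-values measure the spread between these samples, which may be partly technical.

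The libraries held 6120030 to 7162036 counts, and levels are given as CPM, in which TMM factors set the size of each library, with the SD over 4 samples. Differences were tested with limma-voom over all 10911 genes that passed the filter, and a gene is said to rise or fall where its Benjamini-Hochberg adjusted p was under 0.05. Of the tested genes 8.49% fell and 5.47% rose, 14.0% in all. Falls made up 60.8% of these calls, and 38.3% when libraries were scaled by their size alone, so the balance of calls over all genes depends on the scaling. Kit, the receptor used in the sort, was at 153 to 252 CPM in every library and the integrin gene Itgam, which encodes CD11b, was under 1 CPM. Red cell markers, led by hemoglobin, summed to 1970 to 5450 CPM in Vehicle and 4200 to 5420 CPM in AG636 samples. Summed neutrophil markers ranged from 40.9 to 95.4 CPM and from 15.2 to 180 CPM, the megakaryocyte markers from 12.0 to 18.1 CPM and from 13.1 to 61.0 CPM, and the B cell, T and NK cell and macrophage lists each stayed at or under 20.3 CPM. Of these lists 1 red cell gene, Hbb-bt, and 1 B cell gene, Cd79a, rose. The immature myeloid list summed to 568 to 705 CPM and 643 to 952 CPM, mostly through Kit and Myb, whereas the granule genes Mpo, Elane, Prtn3 and Ctsg were each under 5 CPM in every library. The part of these other cells in the results was not tested. In bulk RNA of sorted cells, a smaller number of cells of one type and less RNA per cell cannot be told apart. Across genes, Vehicle replicate 4 had a Spearman correlation of 0.982 to 0.984 with the other Vehicle samples, which correlated at 0.992 to 0.993 among themselves. AG636 samples correlated at 0.959 to 0.980, and the lowest pair was AG636 replicates 2 and 3. AG636 replicate 3 was at 35.6 CPM of Cd34 against 2.43 to 12.6 CPM in the other 7 samples. Members that fell are therefore also given without Vehicle replicate 4 and AG636 replicate 3.

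All 10 genes were expressed in both groups, and 8 of them differed little between Vehicle and AG636 samples. Ino80e and Uchl5 fell, each being lower in 4 of 4 AG636 samples than in any Vehicle sample, and 0 members rose. The lowest level was that of Tfpt at 9.18 CPM over all samples and the highest that of Yy1 at 190 CPM. A count in 3′ libraries comes from 1 end of a transcript, but levels of different genes were also put on a scale per kilobase of exon. On that scale the order ran from Ino80c at 39.0, Uchl5 at 35.1 and Yy1 at 29.6 CPM per kilobase down to Ino80d at 4.89 and Actr8 at 3.94. By CPM, Ino80d ranked 4 of 10 at 86.6 and Actr8 ranked 7 at 35.5. Their low places per kilobase come from division by long exons and do not make them the scarcest transcripts. The ATPase gene Ino80 itself stood at 9.18 CPM per kilobase.

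**Figure D1:**
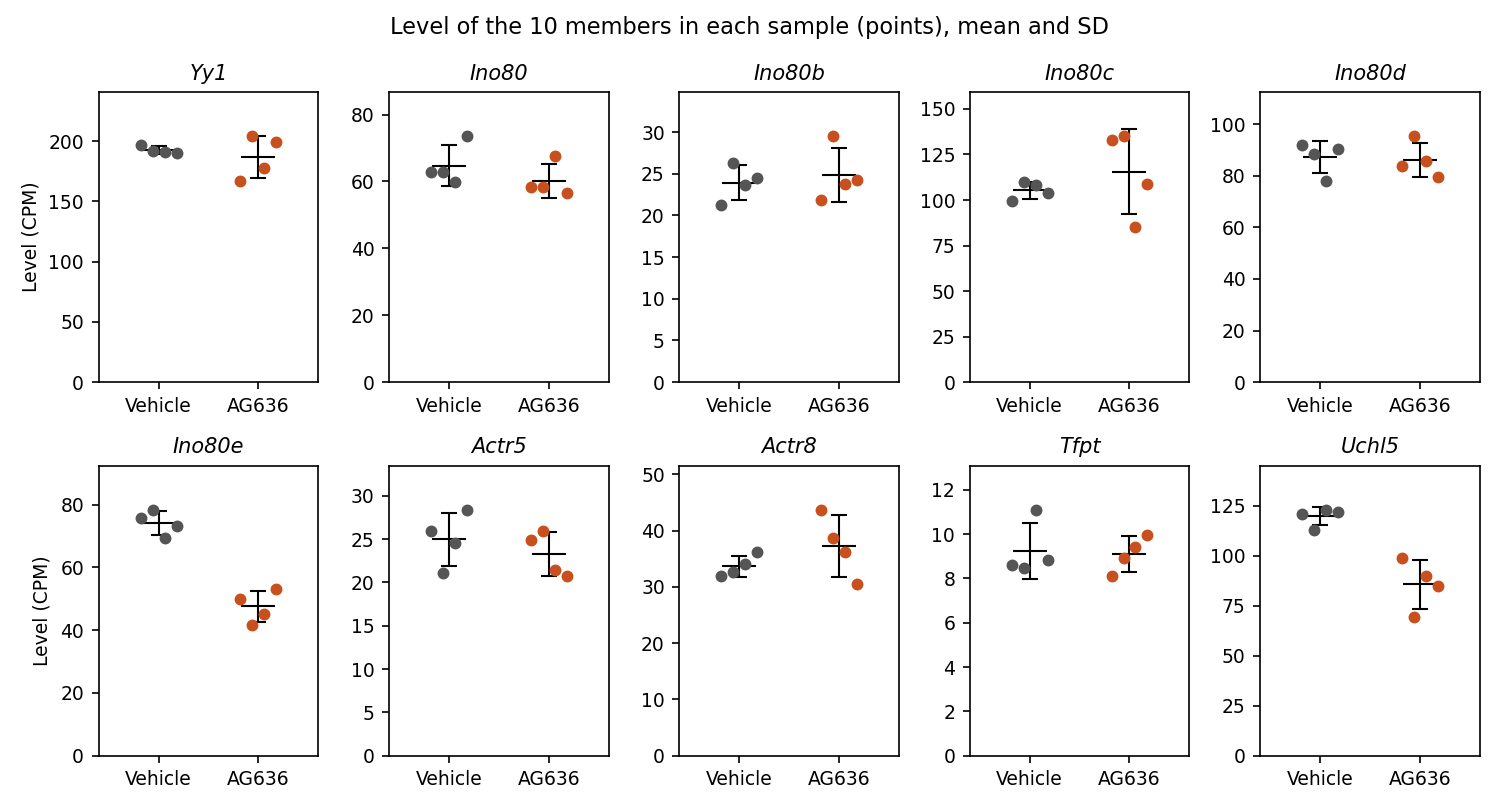
Level in CPM (vertical axes, from 0) of each of the 10 genes in the 4 Vehicle and 4 AG636 samples. Points are samples, the horizontal mark is the group mean and the bars are the SD; the AG636 points lie wholly under the Vehicle points for Ino80e and Uchl5, and the groups overlap for the other 8 genes.

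Yy1 (ENSMUSG00000021264, chr12:108792973-108820148 of GRCm38, plus strand) addresses whether the transcript of this factor moved with DHODH inhibition. It was at 197, 192, 191 and 190 CPM in the Vehicle samples and at 167, 204, 178 and 199 CPM in the AG636 samples. The Vehicle values were close together, and the AG636 values lay on both sides of them. The means were 192 ± 3.33 and 187 ± 17.4 CPM (SD, n = 4), and AG636 differed from Vehicle by −0.04 on the log2 scale (SE 0.08, limma adjusted p = 0.773). The 95% interval of the fold ran from 0.855 to 1.10, so the RNA data leave room for a moderate fall or a small rise. The level of Yy1 was above that of 91.7% of tested genes. Its coefficient of variation was 1.73% in Vehicle, under the 2.84% that counting alone gives at this depth, and 9.28% in AG636. A wider spread in AG636 was seen for 7 of the 10 members and for 71.0% of all tested genes.

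The genes most like Yy1 across the 8 samples, by the root mean square distance of centered log2 CPM among 5214 tested genes of at least moderate level, were Mrpl45 at 0.031, Kmt2d at 0.038 and Ncoa6 at 0.038, against a median distance of 0.195. These genes encode a mitochondrial ribosomal protein, a histone H3 lysine methyltransferase and a nuclear receptor coactivator. None of them passed the test, with log2 fold changes of −0.06, −0.01 and 0.00.

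Of the genes related to YY1, its close paralogs Yy2 and Zfp42 had 0 counts in every sample, which allows up to 0.434 to 0.479 CPM per library at a floor of 3 counts. The annotated exons of Yy2 lie wholly within those of Mbtps2, so that its reads could have been assigned to neither. Rybp, whose product binds YY1 in Polycomb complexes, fell from 44.8 ± 5.23 to 33.1 ± 4.80 CPM (log2 fold change −0.44, SE 0.13, limma adjusted p = 0.042), although its groups overlapped and it passed in only 6 of 17 alternative fits, with an adjusted p of up to 0.157. Its values were 42.0, 39.2, 46.9 and 51.0 CPM in Vehicle and 30.5, 40.2, 30.2 and 31.4 CPM in AG636. Yaf2, Hcfc1 and Bap1, which encode other partners of YY1, did not pass. Thus 1 of 4 tested relatives and partners fell, beside 8.49% of all tested genes, and 0 rose, beside 5.47%. Their median log2 fold change was −0.25 beside −0.006 over all tested genes. With 4 genes these values say little about the list.

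Ino80 (ENSMUSG00000034154, chr2:119373042-119477687, minus strand), which encodes the ATPase and scaffold, was at 62.9, 62.9, 59.7 and 73.5 CPM in Vehicle and at 58.2, 58.3, 67.7 and 56.4 CPM in AG636. Vehicle replicate 4 and AG636 replicate 3 were the highest of their groups, and the groups overlapped. The log2 fold change was −0.11 (SE 0.10, 95% interval −0.33 to 0.11, limma adjusted p = 0.504). The genes most like it were Mapk8 at a distance of 0.051, Spast at 0.058 and Med14 at 0.059, beside a median of 0.212. They encode the stress kinase JNK1, the microtubule-severing enzyme spastin and a Mediator subunit, and none passed the test.

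The actin-related proteins ACTR5 and ACTR8 help the ATPase to grip the nucleosome and linker DNA. Actr5 (ENSMUSG00000037761, chr2:158624888-158639211, plus strand) was at 25.0 ± 3.08 CPM in Vehicle and 23.3 ± 2.58 CPM in AG636 samples, a log2 difference of −0.10 (SE 0.13, limma adjusted p = 0.635). Actr8 (ENSMUSG00000015971, chr14:29978337-30006354, plus strand) was at 31.9, 32.6, 34.0 and 36.2 CPM in Vehicle and 43.7, 38.6, 36.2 and 30.5 CPM in AG636. The AG636 samples held both the highest and the lowest Actr8 value, and the log2 fold change of 0.13 (SE 0.12, 95% interval −0.14 to 0.40) did not pass the test (limma adjusted p = 0.502). It was the largest positive estimate among the members.

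The 4 genes named for the complex as subunits B to E did not move together. Ino80b (ENSMUSG00000030034, chr6:83121765-83125431, minus strand), which encodes a zinc-finger subunit, was at 23.9 ± 2.08 and 24.8 ± 3.31 CPM, a log2 difference of 0.05 (SE 0.13, limma adjusted p = 0.83). Ino80d (ENSMUSG00000040865, chr1:62958418-63114667, minus strand), an animal subunit, was at 87.2 ± 6.27 and 86.1 ± 6.67 CPM, a log2 difference of −0.02 (SE 0.09, limma adjusted p = 0.914). Both pairs of groups overlapped. Ino80c (ENSMUSG00000047989, chr18:24104757-24121953, minus strand), which encodes the counterpart of yeast Ies6, was at 99.4, 110, 108 and 104 CPM in Vehicle and at 133, 135, 85.1 and 109 CPM in AG636. Its AG636 samples spread on both sides of the Vehicle range, with AG636 replicate 3 lowest of all, and the log2 fold change was 0.11 (SE 0.14, 95% interval −0.19 to 0.41, limma adjusted p = 0.637).

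Ino80e (ENSMUSG00000030689, chr7:126850960-126862377, minus strand) encodes a small subunit found in the animal complex. It was at 75.9, 78.4, 69.5 and 73.3 CPM in Vehicle and at 50.1, 41.8, 45.3 and 53.2 CPM in AG636. Every AG636 sample was under every Vehicle sample. The means fell from 74.3 ± 3.80 to 47.6 ± 5.03 CPM, a fold of 0.640 (95% interval 0.551 to 0.743) and a log2 difference of −0.64 (SE 0.10, limma adjusted p = 0.00387). With 4 samples against 4 an exact two-sided permutation test of this single gene gave p = 0.0286, the smallest it can give. That value is fixed by the lack of overlap and adds nothing to it. The fall passed in all 17 alternative fits that were run, with log2 fold changes between −0.69 and −0.58, among them −0.61 without Vehicle replicate 4 and AG636 replicate 3 (limma adjusted p = 0.0123). Exons of Ino80e share 150 bases with Hirip3, which was at 77.2 ± 14.2 and 65.2 ± 10.1 CPM (log2 fold change −0.24, limma adjusted p = 0.297), and 1103 bases with Doc2a, which had 0 counts in every sample. Of the bases shared with Doc2a, 152 lie near the 3′ end of Ino80e, where reads of 3′ libraries fall. How reads in shared exons were assigned was not stated.

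Among the 300-base promoters that RefSeq annotation of GRCm38.p6 gives (250 bases before to 50 after a start), 6 of the 10 members had an entry and Actr5, Actr8, Ino80c and Ino80d had none. A core YY1 motif, AANATGGC on either strand, was found in the promoters of Ino80e and Ino80b, that is in 2 of these 6 genes, and in 6.05% of all 32851 promoters. Of 5 other INO80 subunit genes with an entry, among them Ruvbl1 and Ruvbl2, 0 had a YY1 match. With so few genes these shares say little. An ETS motif, CCGGAAGT on either strand, was found in 1 member, Ino80b, and in 3.89% of all promoters. Sequences are shown for the members that fell and for the other member with a motif match, with matches to either motif in capitals and the strand of the gene read 5′ to 3′.
Ino80e, chr7:126862323-126862622, minus strand: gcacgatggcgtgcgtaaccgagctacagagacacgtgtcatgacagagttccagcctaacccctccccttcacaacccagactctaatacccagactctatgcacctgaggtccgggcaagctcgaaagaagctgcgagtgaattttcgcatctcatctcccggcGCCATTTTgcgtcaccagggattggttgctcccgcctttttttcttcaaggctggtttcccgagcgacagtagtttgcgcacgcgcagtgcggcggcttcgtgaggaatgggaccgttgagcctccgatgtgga
Ino80b, chr6:83125070-83125369, minus strand: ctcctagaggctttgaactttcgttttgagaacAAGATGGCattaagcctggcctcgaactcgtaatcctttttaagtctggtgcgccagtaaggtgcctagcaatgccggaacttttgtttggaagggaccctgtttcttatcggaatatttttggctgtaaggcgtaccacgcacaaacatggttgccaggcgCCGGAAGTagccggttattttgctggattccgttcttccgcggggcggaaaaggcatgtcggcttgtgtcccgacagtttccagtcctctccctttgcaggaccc
Uchl5, chr1:143777028-143777327, plus strand: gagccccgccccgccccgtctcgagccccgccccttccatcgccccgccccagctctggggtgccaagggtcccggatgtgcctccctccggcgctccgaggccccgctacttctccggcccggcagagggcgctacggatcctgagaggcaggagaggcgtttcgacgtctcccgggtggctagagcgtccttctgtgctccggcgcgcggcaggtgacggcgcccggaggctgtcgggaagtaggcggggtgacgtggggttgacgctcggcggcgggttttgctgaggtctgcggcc
In the Ino80e sequence the YY1 match is centered at −80 from the start, counted in bases along the gene, and reads on the opposite strand. In the Ino80b sequence the YY1 match is centered at −213 and the ETS match at −51. Ino80e fell and Ino80b did not pass the test, so the 2 members with a match differ in their calls, and Uchl5 fell with neither motif in its window. The Uchl5 promoter is 73.3% G and C and that of Ino80e 56.7%, beside a median of 52.7% over all promoters. Among members that did not pass the test, this share ran from 48% for Tfpt to 81% for Yy1. A match to letters is no evidence of binding in these cells, and a second Ino80e entry held no match.

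Uchl5 (ENSMUSG00000018189, chr1:143777272-143807466, plus strand) encodes a deubiquitinase held inactive in INO80 and activated at the proteasome. It was at 121, 113, 123 and 122 CPM in Vehicle and at 98.9, 69.3, 89.8 and 84.8 CPM in AG636. All AG636 samples were under all Vehicle samples, and AG636 replicate 2 was lowest. The means fell from 120 ± 4.44 to 85.7 ± 12.4 CPM, a fold of 0.712 (95% interval 0.605 to 0.839) and a log2 difference of −0.49 (SE 0.11, limma adjusted p = 0.0144). The exact two-sided permutation test gave p = 0.0286, again the minimum that the lack of overlap fixes. The fall passed in 16 of 17 alternative fits, the exception being the fit without Vehicle replicate 3 (limma adjusted p = 0.0513). Without Vehicle replicate 4 and AG636 replicate 3 together the log2 fold change was −0.48 (limma adjusted p = 0.0351). Without AG636 replicate 2 alone it was −0.394 (limma adjusted p = 0.0192). No exon of another gene overlaps Uchl5 in the annotation.

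The genes most like Uchl5 over the 8 samples were Lsm6 at 0.050, Ciao2a at 0.058 and M6pr at 0.062, beside a median distance of 0.306. They encode an RNA-binding Sm-like protein, a factor of cytosolic iron-sulfur assembly and the cation-dependent mannose 6-phosphate receptor. Each fell, with log2 fold changes of −0.42, −0.57 and −0.41 (limma adjusted p = 0.0246, 0.0113 and 0.0208; passed in 12, 17 and 12 of 17 alternative fits), which the choice by likeness to Uchl5 makes no separate evidence. The list of proteasome partners of UCHL5 held its receptor Adrm1, the base subunits Psmd1 and Psmd2 and the deubiquitinases Psmd14 and Usp14. Of these 5 genes 0 passed in either direction, beside 14.0% of all tested genes. All 5 estimates were negative, beside 50.6% of all tested genes, with a median of −0.21 beside −0.006. With 5 genes these values say little about the list. The smallest p was that of Psmd1, at 175 ± 13.6 and 142 ± 19.3 CPM (log2 fold change −0.30, SE 0.11, limma adjusted p = 0.0886). The lowest estimate was that of Adrm1 (−0.35, SE 0.14, limma adjusted p = 0.109).

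Tfpt (ENSMUSG00000006335, chr7:3620324-3629929, minus strand) encodes a subunit first known as a fusion partner in childhood leukemia. It was at 8.6, 8.45, 11.1 and 8.82 CPM in Vehicle and at 8.09, 8.94, 9.41 and 9.97 CPM in AG636. Vehicle replicate 3 was highest and the groups overlapped. With 52 to 72 counts per sample it was measured less precisely than any other member, and its log2 fold change of −0.01 had an SE of 0.16 and a 95% interval of −0.38 to 0.35 (limma adjusted p = 0.965). Its neighbor on the other strand, Ndufa3 of respiratory complex I, had 9920 counts against 480 for Tfpt. Their exons share 4 of the 1201 exon bases of Tfpt. Ndufa3 was at 206 ± 3.40 and 173 ± 13.5 CPM (log2 fold change −0.25, limma adjusted p = 0.0587), and the counts of the pair summed gave −0.24 (limma adjusted p = 0.065), which is nearly the Ndufa3 value alone.

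Other exon overlaps of members were with neighbors of low counts, which does not show how shared reads were assigned. Ino80dos, which shares 431 exon bases with Ino80d, was at 1.52 ± 0.234 and 2.36 ± 0.693 CPM. Gm44287, which overlaps Ino80b, had 5 counts in all samples together, and Il17rb and Mir3474, which overlap Actr8 and Actr5, had 0. Il17rb shares 141 bases near the 3′ end of Actr8, and reads there could have been assigned to neither gene. Yy1, Ino80, Ino80c and Uchl5 shared no exon base with another gene.

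The members as a list thus had 2 of 10 genes that fell, beside 8.49% of all tested genes, and 0 that rose, beside 5.47%. The 2 were also the members whose groups did not overlap with AG636 lower, beside 12.9% of tested genes, and no member had AG636 wholly higher, beside 9.35%. With 10 genes these shares say little about the list. The median log2 fold change of the members was −0.03 and the range was −0.64 to 0.13. For 8 of 10 members the 95% interval lay within a 1.5-fold change either way, beside 48.5% of all tested genes and 62.0% of the 8341 with at least as many counts as Tfpt.

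**Figure D2:**
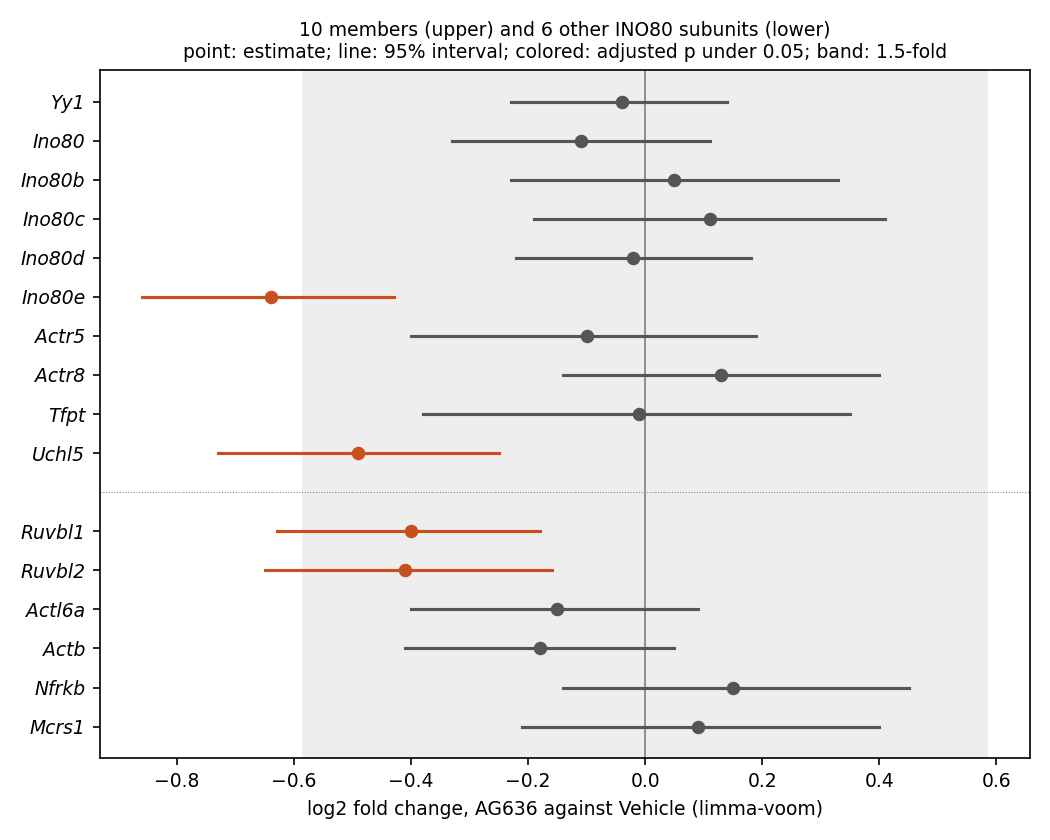
log2 fold change of AG636 against Vehicle (horizontal axis) for the 10 members and the 6 other INO80 subunit genes, with 95% intervals as lines and the range of a 1.5-fold change either way as a grey band. Colored genes had an adjusted p under 0.05: Ino80e at −0.64, Uchl5 at −0.49, Ruvbl1 at −0.40 and Ruvbl2 at −0.41; the intervals of the other 12 genes include 0.

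Besides the members, 6 genes for other INO80 subunits were examined, most of them shared with other complexes. Ruvbl1 and Ruvbl2 encode the AAA+ ATPases that form a ring in INO80, SRCAP, TIP60 and several assembly chaperones. Ruvbl1 was at 87.1, 103, 99.2 and 118 CPM in Vehicle and at 79.8, 71.8, 76.0 and 78.6 CPM in AG636. Ruvbl2 was at 37.3, 31.4, 40.5 and 38.9 CPM in Vehicle and at 26.4, 27.3, 27.8 and 29.5 CPM in AG636. In both genes every AG636 sample was under every Vehicle sample, by a small gap. Both fell, with log2 fold changes of −0.40 (SE 0.10, limma adjusted p = 0.0256) and −0.41 (SE 0.11, limma adjusted p = 0.0344). Ruvbl1 passed in 11 of 17 alternative fits and Ruvbl2 in 9 of 17. Both calls were lost with library size alone as the scaling and without Vehicle replicate 3, Vehicle replicate 4 or AG636 replicate 2, and without Vehicle replicate 4 and AG636 replicate 3 together (limma adjusted p = 0.0827 for Ruvbl1 and 0.103 for Ruvbl2). The call of Ruvbl1 was also lost without Vehicle replicate 2, and that of Ruvbl2 without a filter and without Vehicle replicate 1 or AG636 replicate 1. The highest limma adjusted p over all 17 fits was 0.0827 for Ruvbl1 and 0.105 for Ruvbl2. Exons of Ruvbl2 share 138 bases near its 3′ end with Lhb, which had 0 counts, and 310 bases elsewhere with Gys1.

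Actl6a and Actb, for the actin module, and Nfrkb and Mcrs1, for animal subunits, did not pass. Actl6a was at 138 ± 19.8 and 123 ± 10.9 CPM (log2 fold change −0.15) and Actb at 5210 ± 190 and 4640 ± 648 CPM (−0.18), though Actb has near-identical paralogs and pseudogenes with which it may share reads. Exons of Actl6a share 452 bases near its 3′ end with Mrpl47, which had 2460 counts in all samples together. Nfrkb was at 20.7 ± 1.84 and 23.2 ± 2.88 CPM (0.15) and Mcrs1 at 47.7 ± 6.66 and 51.1 ± 7.94 CPM (0.09). Of the 6 genes 2 fell, beside 8.49% of all tested genes, and 0 rose, beside 5.47%, with a median of −0.17.

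To ask whether the proportions of subunit transcripts shifted within a library, whatever the scaling, counts were divided by those of Ino80 in the same library, a choice made after the values were seen. The ratio of Ino80e to Ino80 was 1.21, 1.25, 1.16 and 0.998 in Vehicle and 0.861, 0.718, 0.67 and 0.944 in AG636. The groups stayed apart, with means of 1.15 ± 0.109 and 0.798 ± 0.127 and a mean log2 difference of −0.54. The ratio of Uchl5 to Ino80 was 1.92, 1.80, 2.05 and 1.66 in Vehicle and 1.70, 1.19, 1.33 and 1.51 in AG636. Here AG636 replicate 1 was above Vehicle replicate 4, in which Ino80 was high, so the groups overlapped (1.86 ± 0.17 and 1.43 ± 0.222, log2 difference −0.38). The ratios of Ruvbl1 and Ruvbl2 each differed by −0.30 and overlapped, and that of Yy1 was 2.99 ± 0.279 and 3.14 ± 0.453, a log2 difference of 0.06. Other ratios were higher in AG636: Nfrkb by 0.27, Actr8 by 0.24, Ino80c by 0.21, Mcrs1 by 0.20 and Ino80b by 0.16. Ino80d and Tfpt each differed by 0.09, Actr5 by 0 and Actl6a by −0.05. The groups overlapped for all of these genes.

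**Figure D3:**
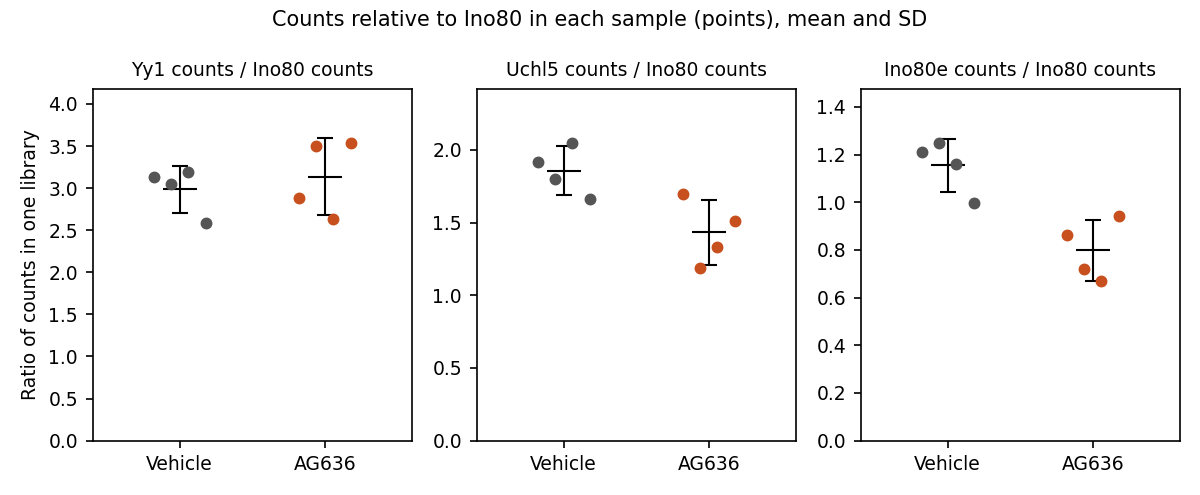
Counts of Yy1, Uchl5 and Ino80e divided by counts of Ino80 in the same library (vertical axes, from 0, no unit) in the 4 Vehicle and 4 AG636 samples. Points are samples and bars are the mean and SD; the Ino80e ratios of the groups do not overlap, from 0.998 upward in Vehicle and from 0.944 downward in AG636, while the Uchl5 and Yy1 ratios overlap.

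The pathway around INO80 was examined with lists of related genes. Their counts of calls stand beside 8.49% of all tested genes that fell and 5.47% that rose. Their medians stand beside −0.006 over all tested genes. Lists this short say little. SRCAP, which deposits the H2A.Z that INO80 edits, had 0 of 6 tested genes past the threshold, with a median log2 fold change of 0.09. Its smallest p was that of Actr6, at 24.8 ± 2.67 and 22.1 ± 2.33 CPM (−0.17, limma adjusted p = 0.408). Srcap itself had only 119 counts and shares most of its exon bases with the read-through gene Gm42715, so its level is uncertain. Of 12 genes of the TIP60 acetyltransferase complex, 2 rose and 0 fell, with a median of 0.02. Epc2, a scaffold of the complex, rose from 64.0 ± 3.53 to 81.1 ± 1.55 CPM (0.34, SE 0.08, limma adjusted p = 0.0181) and the bromodomain gene Brd8 rose from 177 ± 21.2 to 234 ± 29.9 CPM (0.40, SE 0.12, limma adjusted p = 0.0419). Epc2 passed in 15 of 17 alternative fits and Brd8 in 12 of 17.

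The genes of the H2A.Z substrate differed. H2afv, which encodes H2A.Z.2, was at 328, 340, 326 and 347 CPM in Vehicle and at 493, 514, 402 and 387 CPM in AG636. Every AG636 sample was above every Vehicle sample, and H2afv rose with a log2 difference of 0.41 (SE 0.10, limma adjusted p = 0.0244), a call kept in 13 of 17 alternative fits. H2afz, which encodes H2A.Z.1, was at 1560 ± 152 and 1330 ± 137 CPM and did not pass (−0.24, limma adjusted p = 0.142), nor did Anp32e, the chaperone that removes H2A.Z (−0.11). Both H2A.Z genes have processed copies in the genome with which reads may be shared. H2afv was the 1 gene of 3 that rose and 0 fell, with a median of −0.11.

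Among 12 tested ATPase genes of other remodelers, 1 fell and 2 rose, with a median of −0.07. Hells, for a remodeler of heterochromatin and DNA methylation that is high in dividing cells, fell from 137 ± 3.79 to 85.8 ± 18 CPM (−0.70, SE 0.13, limma adjusted p = 0.00747). Chd3, of the NuRD complex, rose from 158 ± 4.88 to 210 ± 19.2 CPM (0.41, limma adjusted p = 0.012) and Chd2 rose from 167 ± 10.8 to 228 ± 39.3 CPM (0.44, limma adjusted p = 0.0303). Hells and Chd3 passed in 17 of 17 alternative fits and Chd2 in 11 of 17. Smarca1 was not tested, with counts near 0. A further list held ribosomal protein genes at whose promoters the study measured YY1 binding in cells of its MLL-AF9 model, not in the cells sequenced here. The choice of these genes may have drawn on these samples. Of these 5 genes 1 fell and 0 rose, with a median of −0.11. Rpl13a fell from 249 ± 16.4 to 171 ± 20.8 CPM (−0.55, SE 0.10, limma adjusted p = 0.00627), and like other ribosomal protein genes it has many processed copies. Over these 7 lists, 3 of 47 tested genes fell and 5 rose, with a median of −0.11, beside 8.49% and 5.47% of all tested genes.

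**Figure D4:**
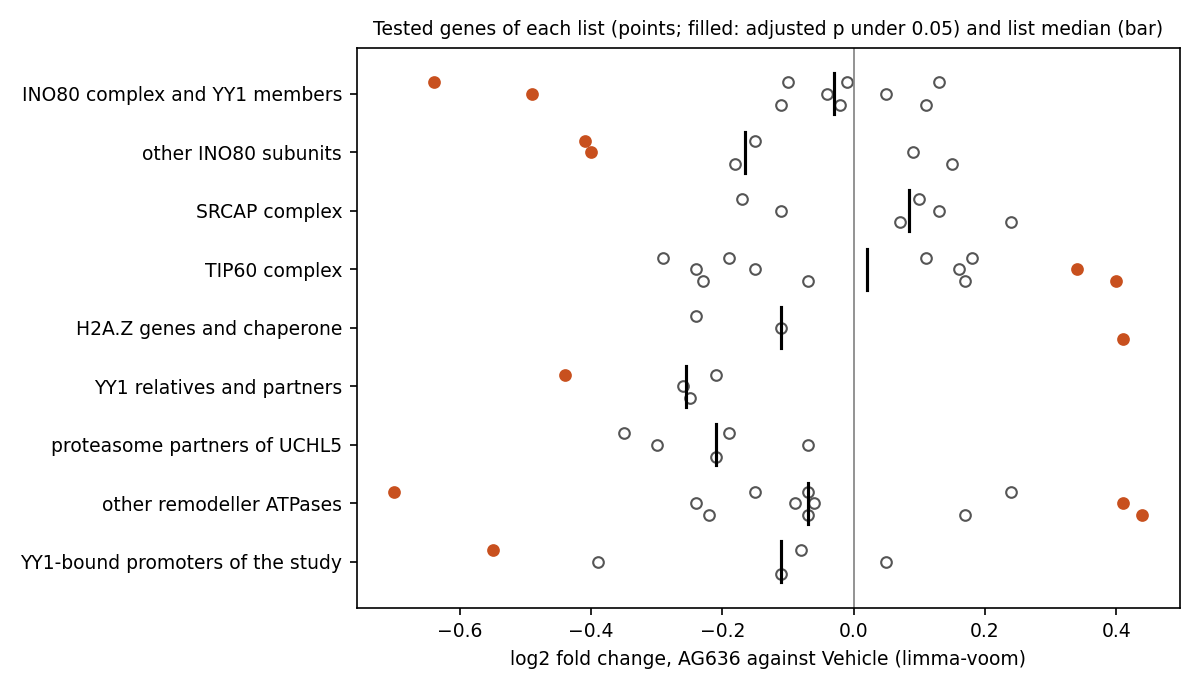
log2 fold change of AG636 against Vehicle (horizontal axis) of each tested gene in the 9 lists, with 1 list per row. Filled points had an adjusted p under 0.05 and the black bar is the median of the list, which lay between −0.25 and 0.09 in every row.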

How the data were processed

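RNA was measured in 4 Vehicle and 4 AG636 samples, grouped by their titles. To make the deposited counts, the authors trimmed reads with cutadapt 1.9.1, mapped them to GRCm38 (mm10) with HISAT2 2.0.4 and counted them per gene with featureCounts of Subread 1.5.0-p3, as given in the submitters' processing notes. The text of the study gives other versions of cutadapt and Subread. The handling of strand, of overlapping genes and of multimapping reads is not given in the sources used here. Libraries were QuantSeq 3′ mRNA libraries, in which a count stands for 1 transcript end. No molecular identifiers are described. Symbols were matched to Ensembl IDs through a name table, which left 115 of 54838 rows without one. Exon overlaps and exon lengths came from the annotation columns of the count table. The 16 members and other INO80 subunit genes have the same gene coordinates in GENCODE M21, and the related genes were not compared.

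Genes were kept by filterByExpr with a minimum count of 10 and compared in R 4.3.3 by voom of limma 3.58.1 with edgeR 4.0.16 for TMM scaling and group as the only term, two-sided, with Benjamini-Hochberg adjustment over all 10911 genes tested and a threshold of 0.05. limma was used because the study names it. edgeR quasi-likelihood and DESeq2 1.42.0, other scalings and filters, sample weights, a replicate block and fits without 1 sample were alternatives. The steps were tested on simulated data. CPM used the TMM-scaled library. A chi-square comparison found more than counting noise between all pairs of replicates, so none was taken for a duplicate.

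The members, the lists of related genes and the rule for named genes (all members and other subunits, from each other list the genes past the threshold or the one with the smallest p, genes overlapping a member, and the 3 genes most like Yy1, Ino80 and Uchl5, outside the lists and with a mean log2 CPM not under 5) were chosen with earlier results of these data known. Gene lists are described by counts and medians without a test.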

Additional observations from a re-analysis of the deposited data

Results flagged for a closer look

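Within each group of 4 samples, the highest and the lowest value of each of the 16 INO80 and YY1 genes was compared with the others by Dixon's criterion on log2 CPM. Of the 32 combinations of gene and group 2 stood out, and chance alone gives about 1 in 20. Tfpt in Vehicle replicate 3 was at 3.52 on the log2 CPM scale (11.1 CPM), above the 3.13 to 3.19 of the other Vehicle samples. Nfrkb in AG636 replicate 4 was at 4.27 on the log2 CPM scale (18.9 CPM), under the 4.61 to 4.66 of the other AG636 samples. Neither gene passed the test between the groups.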

How the results depend on the processing

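Over 17 alternative fits per gene, 153 of 171 member values kept their direction and their side of the threshold, as did 87 of 102 for the other subunits. The 2 falls among members became 1 at an adjusted p under 0.01 and 1 to 2 without single samples, 1 without Vehicle replicate 3. The 2 among the other subunits became 0 with library size alone, 1 without a filter, 0 at an adjusted p under 0.01, and 0 to 2 without single samples or without Vehicle replicate 4 and AG636 replicate 3 together, a choice made after seeing the data. The 8 calls in the related lists became 2 at an adjusted p under 0.01 and 3 to 7 without single samples, and the 1523 calls over all genes became 435 and 688 to 1706, the lowest without Vehicle replicate 3. Estimates that turned sign were near 0 and passed in no fit: with library size alone Yy1 was 0.0277, Ino80d 0.0515 and Tfpt 0.0558, with at least 10 counts in every sample Ino80d was 0.011 and Tfpt 0.0151, with RLE factors Tfpt was 0.00404, and in DESeq2 Ino80d was 3.24e-05. Without samples, log2 fold changes ranged from −0.086 to 0.00873 for Yy1, −0.0362 to 0.107 for Ino80b, −0.0746 to 0.035 for Ino80d, −0.187 to 0.0137 for Actr5, −0.0569 to 0.072 for Tfpt and −0.206 to 0.0175 for Actl6a. The cause was not tested. No pairing by the replicate numbers in the labels was established. Deviations of same-numbered samples correlated at −0.14, 0.014, 0.203 and 0.135, and those of differently numbered samples at −0.33 to 0.253. Ranges that overlap in this way cannot decide whether samples were paired. With the replicate number as a block, limma called 1446 genes, 2 members, 2 other subunits and 8 related genes, Ino80e was −0.642 and Uchl5 −0.487. Under the block Rybp no longer passed (limma adjusted p = 0.0738) and Psmd1 did (0.0476). Per kilobase, 8 of 10 ranks of the members by level moved. Fewer than 100 counts per sample limited Tfpt.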
